A study of Mus musculus with 56 samples.

Results

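The serum controls of an oleic acid (OA) lung injury study were compared with each other over time. Mice killed 18 hours (18H, 2 mice) or 24 hours (24H, 1 mouse) after an injection of physiological serum formed the late group, and mice killed 1 hour (1H, 2 mice) or 1.5 hours (1H30, 1 mouse on 2 microarrays) after it formed the early group. These 6 mice, on 7 microarrays, were taken by treatment and time from 35 mice on 60 microarrays. No measured value was used to choose them. All were wild-type female C57Bl/6J mice aged 7 weeks, anesthetized with xylazine and ketamine and injected with physiological serum through the tail vein, and none received OA. The smallest lung of each mouse was taken, and its RNA was labelled with 33P and hybridized to MUSV29K, a nylon microarray whose spots are cDNA clones of mouse genes. Another 2 serum mice killed at 3 hours (3H) entered the normalization and are given beside some values. The 16 OA mice of the same times, 10 early (1H and 1H30) and 6 late (18H and 24H), which had the same anesthesia and an injection of OA, served as the other treatment. No mouse without an injection was among the samples analysed here, so that time after injection, anesthesia and hour of the day cannot be told apart. The labels do not say which microarray belongs to which mouse, and the number of mice at each time was taken from the study's design.

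Serum is the vehicle of this model, and its mice are the baseline against which OA mice are read. Injection and anesthesia are stressors known to raise glucocorticoids. Glucocorticoids act through a nuclear receptor that induces genes such as Errfi1, Nfkbia, Txnip and Klf9 within hours. Interferons act through transcription factors that bind the gamma-activated site (GAS) and the interferon-stimulated response element (ISRE), and induce guanylate-binding proteins and immunity-related GTPases. In lung, alveolar type II cells make surfactant, endothelium lines the large capillary bed, and fibroblasts deposit collagen.

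Of 7625 spots with a named clone, 1925 clones (25.2%) of 1589 genes were brighter, by their mean over the 6 mice, than 95% of the 512 empty spots, and were tested. Values are log2 of the spot intensity after quantile normalization over the 9 serum microarrays, and a difference is the late mean minus the early mean on that scale. The median log2 intensity before normalization lay between 7.09 and 7.98 on the early microarrays and between 7.00 and 8.36 on the late ones, so that brightness did not separate the groups. On the 3H microarrays it was 5.73 and 8.39, and the dimmer of them had 13.5% of named clones above its empty spots, against 21.4% to 30.5% on the early and late microarrays. The median absolute difference over the clones tested was 0.29 between the 2 microarrays of the 1H30 mouse. Between microarrays of different mice of 1 group it was 0.22 to 0.29, and between late and early microarrays 0.19 to 0.35. Microarrays of different mice were thus about as far apart as 2 microarrays of the same mouse. The lung label was borne out by bright markers, with means of 13.83 early and 14.08 late for Sftpd, the surfactant protein D of type II cells, and of 12.80 and 13.20 for Cldn5, the claudin of endothelial tight junctions. On 8 of the 9 microarrays, 2 to 16 spots sat at the highest intensity recorded, 21815, so that clones near a log2 value of 14.3, such as Sparc, could not show a difference.

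No clone passed 5% false discovery rate (FDR) in limma with Benjamini-Hochberg adjustment, in either direction (0% of 1925 clones), and the lowest adjusted p was 0.661. At an unadjusted p under 0.05, 56 clones (2.91%) were higher and 75 clones (3.9%) were lower in the late mice, 6.81% together. The 3 late mice lay above all 3 early mice in 110 clones (5.71%) and below them in 145 clones (7.53%). Differences ran from -1.30 to 1.46, with a median of 0.02 over all clones and a median size of 0.16, against a median standard error (SE) of 0.18. Only 122 clones (6.34%) differed by more than 0.5 and 9 by more than 1, 7 upward and 2 downward. The counts at p under 0.05 depended on single mice. Without the second 1H mouse 97 clones were higher, without the 1H30 mouse 34 were higher and 44 lower, and without the first 18H mouse 115 were lower. They depended on the scaling too, since with each microarray centred on its median in place of quantile normalization 75 clones were higher and 50 lower. The genes below are therefore described by their values, and none is called changed. The p-values measure the spread between 3 and 3 mice.

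Among clones with groups that do not overlap, the lowest p in the upward direction belonged to Ftl1, the ferritin light chain that stores iron. Its clone read 12.37, 12.24 and 12.35 in the early mice and 12.97, 13.02 and 12.91 in the late mice, a difference of 0.65 (SE 0.13), or 1.57-fold. The groups stood well apart in these values, but over the settings tried the difference ran from 0.0030 to 0.69. The 3H mice read 12.22 and 13.08, the second above every late mouse. The other 3 Ftl1 clones, the brightest among them, also had late mice above early mice, by 0.21, 0.21 and 0.47. Gpx3, the secreted glutathione peroxidase, read 12.45, 12.22 and 12.49 early and 13.41, 12.83 and 13.06 late, a difference of 0.71 (SE 0.18). Ctsd, the lysosomal protease cathepsin D, read 9.73, 9.17 and 9.85 early and 10.38, 10.63 and 10.36 late, a difference of 0.88 (SE 0.21). Eef2, the elongation factor that moves the ribosome along mRNA, read 11.89, 12.06 and 11.73 early and 12.70, 12.24 and 12.62 late. Its difference was 0.62 (SE 0.18), and its other 3 clones differed by 0.17, 0.30 and 0.40.

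The remaining places went to Cd97, an adhesion receptor of leukocytes (0.67, SE 0.15), Gnb2, a G protein beta subunit (0.53, SE 0.15), and Traf1, an adaptor of TNF receptors (0.74, SE 0.23). Lztr1, an adaptor of a ubiquitin ligase, differed by 0.54 (SE 0.17), Rad21, a cohesin subunit, by 0.51 (SE 0.17), and 1 clone of Ppia, the cyclophilin A gene, by 0.51 (SE 0.15). With the fitted signal at calculated diameter Rad21 was at -0.098. The Ppia clones did not move together. The brightest clone differed by -0.04, and the 6 clones ran from -0.39 to 0.51. The early means of Traf1 and Rad21 lay under the filter's level of 8.83, so that these clones passed only through the late mice.

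**Figure D1:**
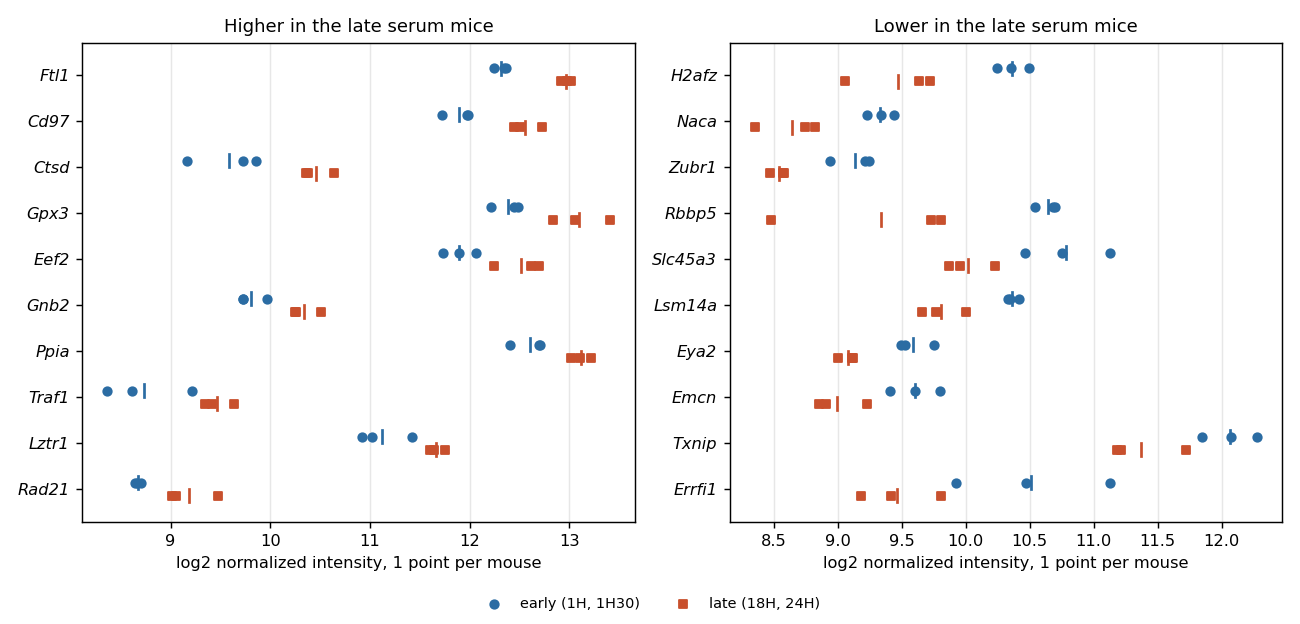
The 10 clones with the lowest unadjusted p among those higher (left) and lower (right) in the late serum mice and with groups that do not overlap. Each point is 1 mouse on a log2 normalized intensity axis, circles early and squares late, and each short line is the mean of 3 mice. No clone passed 5% FDR, and the largest difference shown is that of Rbbp5, -1.30, in which 1 of the 18H mice lies apart at 8.48.

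In the downward direction the lowest p belonged to H2afz, the histone variant H2A.Z found at promoters. Its clone read 10.49, 10.25 and 10.35 early and 9.72, 9.05 and 9.64 late, a difference of -0.89 (SE 0.20). The second and brighter H2afz clone differed by -0.14 (SE 0.19), with overlapping groups. Rbbp5, a core subunit of the MLL histone methyltransferase complexes, had the lowest value of all differences, -1.30 (SE 0.33). It read 10.69, 10.68 and 10.54 early and 9.73, 8.48 and 9.81 late, so that the size of its difference rested in part on 1 mouse at 18H. Slc45a3, a membrane transporter, differed by -0.77 (SE 0.20), and Eya2, a transcriptional coactivator and phosphatase, by -0.51 (SE 0.14). Lsm14a, a protein of processing bodies, differed by -0.56 (SE 0.15), and its dimmer clone by -0.05. Naca, the alpha subunit of the nascent polypeptide-associated complex, differed by -0.69 (SE 0.17) in 1 clone and by -0.22 and -0.09 in its brighter clones. Zubr1, a ubiquitin ligase, differed by -0.59 (SE 0.15) in 1 clone and by -0.04 in the brighter one. For Naca and Zubr1 the clone with the low p was thus the dimmest of the gene. With the fitted signal at calculated diameter the leading Naca clone was at 0.054, and so turned sign. The late means of these Naca and Zubr1 clones lay under the filter's level, so that they passed only through the early mice. The leading clones also held Emcn, Txnip and Errfi1, which are described with their lists.

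Several clones of 1 gene lie at different spots and give a check within a microarray. Of 488 pairs of tested clones of the same gene, 320 (65.6%) had differences of the same sign. Among the 67 pairs in which at least 1 clone had an unadjusted p under 0.05, 58 (86.6%) did. In 6 genes 2 or more clones had a p under 0.05, all in 1 direction for each gene. These were Ftl1, Eef2, Irf1 and Hsp90ab1 among the higher and Errfi1 and Nfkbia among the lower. Clones of 1 gene share the mice, so that this counts agreement of spots and not of animals.

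Interferon-induced genes gave the highest differences, and they were high in 2 of the 3 late mice. The list of interferon response and MHC genes had 16 tested clones of 9 genes, with 15 positive differences and a median of 0.38, against 0.02 over all clones. At p under 0.05, 5 of its clones were higher and 0 lower, against 2.91% and 3.9% of all clones, and 2 clones had groups that do not overlap. The filter bears on these counts. In 6 of the 16 clones, 3 of Gbp2 and 2 of Irf1 among them, the early mean lay below the filter's level of 8.83, so that they passed only through the late mice in which they were high, and had to differ. That held for 64 (3.32%) of all 1925 clones. Among the other 10 clones of the list 2 were higher and 0 lower at p under 0.05. Over all 44 clones of the list on the microarray, with no filter, 31 had positive differences, 11 were higher and 0 lower at p under 0.05 and the median was 0.20, against 247 higher, 400 lower and a median of -0.0063 over 7625 clones, most of them dim. The mean level of the 16 tested clones was 10.56, 10.47 and 10.51 in the early mice, 11.65 and 10.49 in the 18H mice and 11.12 in the 24H mouse. In the 3H mice it was 10.47 and 10.52. Irf1, a transcription factor induced by interferon gamma, is named by its brighter clone, which read 8.84, 8.64 and 8.40 in the early mice, 10.18 and 8.62 in the 18H mice and 9.62 in the 24H mouse. The difference was 0.85 (SE 0.35). The second Irf1 clone differed by 1.00 (SE 0.34) and gave the same order, with 10.15, 8.72 and 9.68 in the late mice. In both clones the second 18H mouse read like the early mice, and the groups overlapped. The first 3H mouse, at 9.06 in the brighter clone and 8.99 in the second, lay above the early mice. The second 3H mouse lay within their range.

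Of the next genes, Gbp2 is a member of the list, and all were chosen after their values were seen. Gbp2, a guanylate-binding protein that acts against intracellular pathogens, had 3 clones that differed by 1.42 (SE 0.56), 1.45 (SE 0.64) and 1.43 (SE 0.78). All 3, and Ifi47 below, are among the clones whose early mean lay under the filter's level. Its brightest clone read 9.04, 8.51 and 8.80 early, then 11.41 and 8.78 at 18H and 10.41 at 24H. The first 18H mouse thus stood 2.37 above the highest early mouse, and the 24H mouse 1.37 above it. Tgtp, an immunity-related GTPase, read 9.00, 8.98 and 9.03 early, 11.62 and 8.89 at 18H and 10.87 at 24H. Ifi47, another GTPase of this family, read 8.85, 8.45 and 8.76 early, 10.56 and 8.38 at 18H and 9.70 at 24H. Wars, the tryptophanyl-tRNA synthetase that interferon gamma induces, read 9.03, 9.19 and 9.41 early, 11.99 and 9.70 at 18H and 10.19 at 24H. Samhd1, a dNTP hydrolase, read 8.92, 9.24 and 9.14 early, 10.16 and 9.30 at 18H and 9.97 at 24H. In each gene the first 18H mouse was the highest late mouse, the 24H mouse came next and the second 18H mouse was lowest. The first 3H mouse, on the dimmer 3H microarray, also lay above every early mouse in several of these clones. It read 9.48 in the brightest Gbp2 clone, 9.17 in Tgtp, 10.43 in Wars and 9.35 in this Samhd1 clone. In Ifi47, at 8.78, it lay within the early range. The second 3H mouse lay within or below the early range in all of these clones. The groups did not overlap in Wars and in this Samhd1 clone and overlapped in the others. The brighter Samhd1 clone differed by 0.64 (SE 0.28) and gave the same order.

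MHC genes did not share that order. H2-K1, a class I heavy chain, read 9.58, 10.00 and 9.46 early, 10.02 and 10.05 at 18H and 10.80 at 24H. Cd74, the invariant chain of class II, is named by its brightest clone, which differed by 0.06 (SE 0.20). Its other clones differed by 0.17, 0.27 and 0.47, the last with groups that do not overlap. Of the interferon list, 18 genes on the microarray, Irf7 and Usp18 among them, had no clone bright enough for the test.

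**Figure D2:**
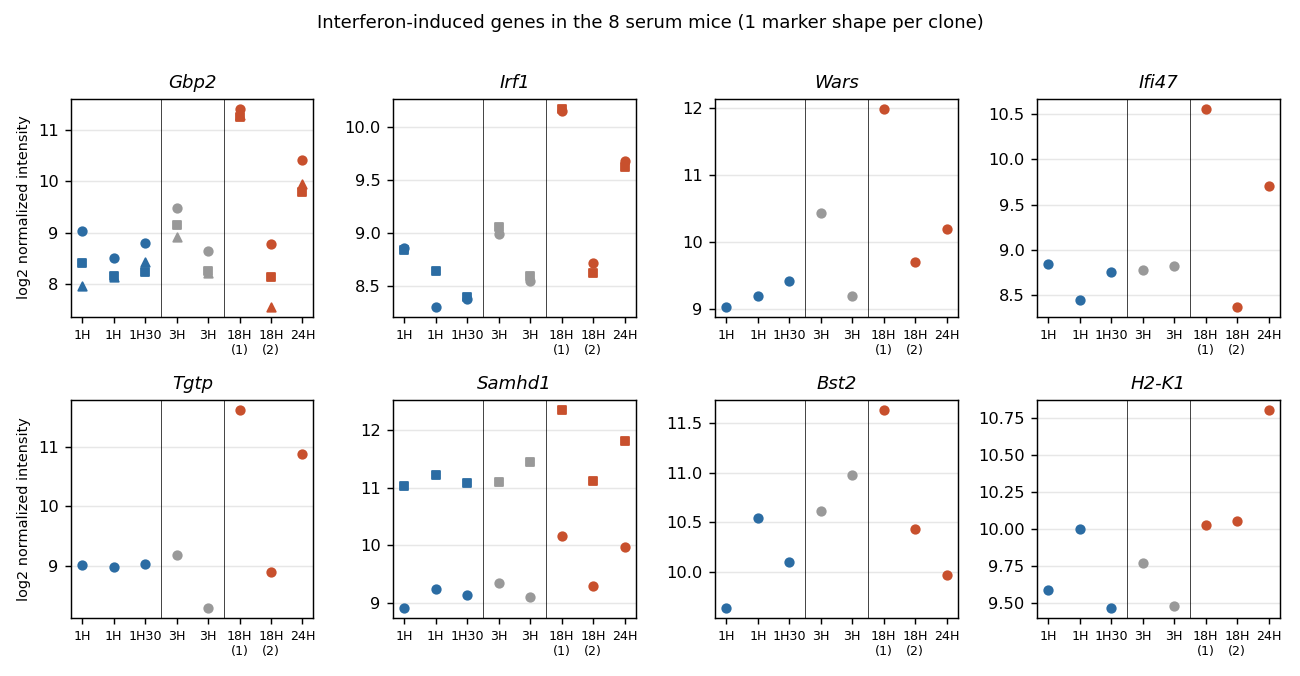
Log2 normalized intensity of interferon-induced and MHC genes in each of the 8 serum mice, early in blue, 3H in grey and late in red, with 1 marker shape per clone of a gene. The first 18H mouse and the 24H mouse stand above the early mice in Gbp2, Irf1, Ifi47, Tgtp and Samhd1 and the second 18H mouse lies near them, while H2-K1 is highest in the 24H mouse. The first 3H mouse also lies above the early mice in Gbp2, Irf1, Tgtp and Wars.

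Across all tested clones, the first 18H mouse lay more than 1 above the highest early mouse in 16 clones of 12 genes, the second 18H mouse in 0 and the 24H mouse in 16. They lay more than 1 below the lowest early mouse in 5, 7 and 3 clones, so that the second 18H mouse departed by more than 1 only downward. Against the late mice, the early mice lay more than 1 above the highest late mouse in 6, 1 and 2 clones and more than 1 below the lowest in 6, 3 and 5. The 16 clones of the first 18H mouse were those of Gbp2, Tgtp, Wars, Ifi47, Irf1, Samhd1, Bst2, S100a8, S100a9, Hsp90ab1, Hspa5 and Ddt. In 10 of these 16 clones the 24H mouse also lay above the highest early mouse, and in 4 the second 18H mouse did. Bst2, or tetherin, an interferon-induced protein that holds virions at the membrane, was at 11.63 in the first 18H mouse and at 10.43 and 9.98 in the other late mice, against 9.64, 10.54 and 10.10 early. Each of these mice had 1 microarray, so that mouse and microarray cannot be told apart.

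Promoters of this group are shown because they hold, or lack, the elements through which interferons are known to act. The windows are from RefSeq on GRCm38.p6 and hold the 250 bases before the gene's start, 5′ to 3′ on the gene's strand. Both strands were searched for GAS (TTCNNNGAA), ISRE (GAAANNGAAA) and the glucocorticoid response element (GRE, GNACANNNTGTNC), and matches are in capitals. The Irf1 window is at chr11:53769764-53770013 (+ strand) and its match is GAS. The Gbp2 window is at chr3:142620413-142620662 (+ strand) and its match is ISRE, read on the other strand. The Bst2 window is at chr8:71537473-71537722 (- strand), where GAS and 2 ISRE matches overlap in 1 run of capitals.
Irf1: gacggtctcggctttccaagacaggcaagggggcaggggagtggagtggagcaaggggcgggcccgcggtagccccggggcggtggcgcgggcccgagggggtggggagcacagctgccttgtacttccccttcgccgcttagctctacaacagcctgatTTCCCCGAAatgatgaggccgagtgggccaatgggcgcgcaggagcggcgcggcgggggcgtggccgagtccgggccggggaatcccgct
Gbp2: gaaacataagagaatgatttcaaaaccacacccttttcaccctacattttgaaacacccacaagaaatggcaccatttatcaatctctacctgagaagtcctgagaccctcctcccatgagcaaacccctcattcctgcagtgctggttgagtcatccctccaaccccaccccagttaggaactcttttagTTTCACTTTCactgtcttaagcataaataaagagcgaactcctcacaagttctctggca
Bst2: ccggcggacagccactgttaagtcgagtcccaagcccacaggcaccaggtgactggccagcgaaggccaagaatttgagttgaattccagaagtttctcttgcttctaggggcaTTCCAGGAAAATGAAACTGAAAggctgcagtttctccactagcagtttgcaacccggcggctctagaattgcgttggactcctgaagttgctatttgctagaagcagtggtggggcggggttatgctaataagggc
Of 32851 promoter windows of 300 bases, 250 before and 50 after the start, 8.3% held GAS and 3.44% ISRE. The Samhd1 window held GAS, the Ifi47 window held neither, and a second Irf1 start had neither. A match describes letters and not a bound site.

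Genes that glucocorticoids induce gave, with the 3 clones of the B cell list, the lowest median of the 26 lists. Of 12 tested clones of 9 genes, 10 had negative differences, and the median was -0.52, against 0.02 over all clones. The mean level of these clones was 10.69, 9.98 and 10.19 in the early mice and 9.69, 9.91 and 10.00 in the late mice. By this mean the groups overlapped, since the second 1H mouse lay below the 24H mouse. At p under 0.05, 6 clones were lower and 1 higher, against 3.9% and 2.91% of all clones. In 5 clones the late mice lay below all early mice, against 7.53% of all clones. Errfi1 gave 3 of the lower clones, Nfkbia 2 and Txnip 1, so that the counts and the median hold repeated spots of the same genes in the same mice. In 10 of the 12 clones both means lay above the filter's level, and these held all 6 lower clones. Errfi1, or Mig6, an inhibitor of EGF receptor signalling, had 3 clones that differed by -1.04 (SE 0.30), -0.92 (SE 0.30) and -0.92 (SE 0.39). Its brightest clone read 11.91, 11.07 and 10.73 early, 11.67 and 11.30 at 3H, and 10.02, 10.38 and 10.56 late. The groups did not overlap in this clone and in the clone with the lowest p, and overlapped in the third, where a 1H mouse at 10.47 lay below an 18H mouse at 10.57. The first 1H mouse was the highest in all 3 clones. It stood more than 1 above the highest late mouse in each of them, in Klf9 and in the dimmer Nfkbia clone. Without that mouse the difference of the Errfi1 clone with the lowest p was -0.73 in place of -1.04.

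Txnip, the thioredoxin-interacting protein that restrains glucose uptake, read 12.07, 12.28 and 11.85 early and 11.21, 11.18 and 11.72 late, a difference of -0.70 (SE 0.20). Nfkbia, the inhibitor of NF-κB, was chosen after its values were seen and had 2 clones. The brighter read 10.76, 10.54 and 10.84 early, 10.91 and 11.14 at 3H, and 10.19, 10.51 and 10.01 late, a difference of -0.48 (SE 0.18), and the other differed by -0.57 (SE 0.24). In both, every late mouse lay below every early mouse. Klf9, a Krüppel-like factor also chosen after its values were seen, read 9.82, 8.68 and 9.31 early, 10.25 and 9.66 at 3H, and 8.73, 8.78 and 8.55 late, a difference of -0.58 (SE 0.27), with groups that overlap. Not all members followed. The metallothioneins Mt1 and Mt2 differed by -0.11 (SE 0.25) and -0.14 (SE 0.35), and Lcn2, the neutrophil granule protein lipocalin 2, which also stands in the neutrophil list, was higher late, by 0.44 (SE 0.18). Fkbp5, Sgk and Zbtb16 were among 8 genes of the list too dim for the test.

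The Txnip window, at chr3:96557707-96557956 (+ strand), is shown because it holds the GRE letters, which 0.475% of all windows do.
Txnip: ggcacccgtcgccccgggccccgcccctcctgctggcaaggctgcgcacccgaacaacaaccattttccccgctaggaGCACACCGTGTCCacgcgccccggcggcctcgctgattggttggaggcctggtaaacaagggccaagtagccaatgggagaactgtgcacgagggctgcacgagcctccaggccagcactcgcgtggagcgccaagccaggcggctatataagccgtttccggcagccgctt
The windows of Errfi1, Nfkbia and Klf9 did not hold these letters, which says nothing of sites elsewhere.

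**Figure D3:**
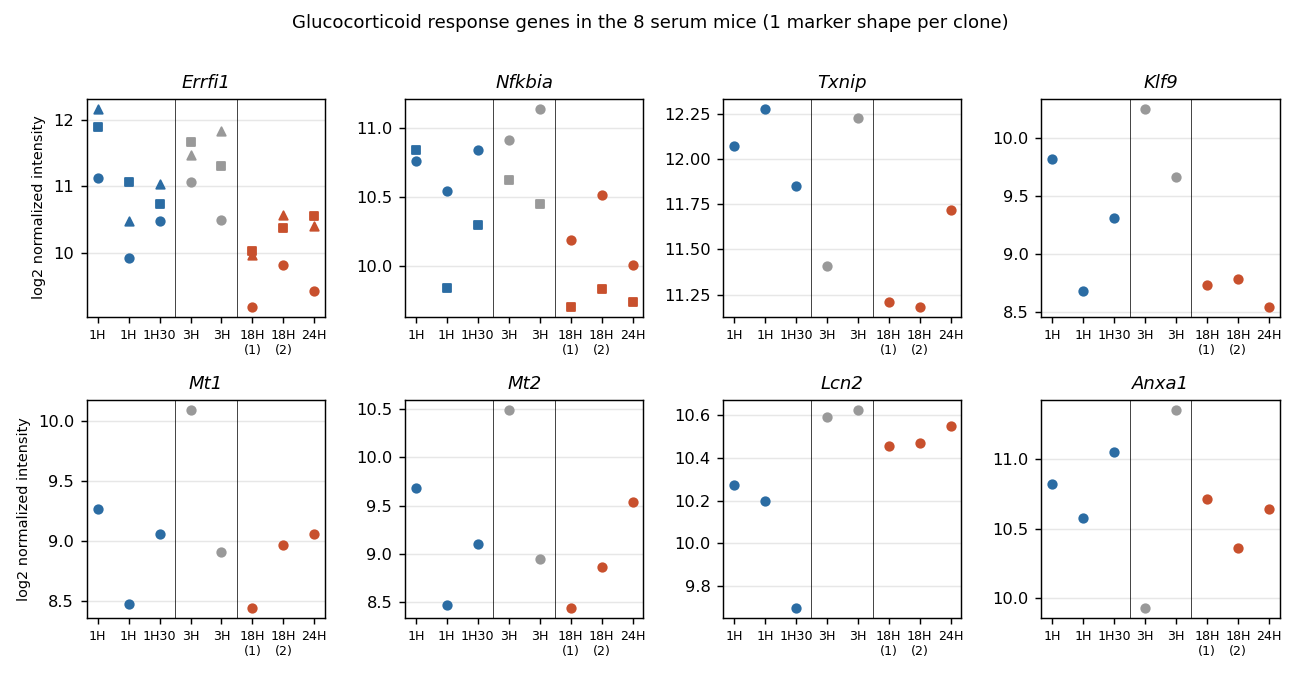
Log2 normalized intensity of genes of the glucocorticoid list in each of the 8 serum mice, early in blue, 3H in grey and late in red, with 1 marker shape per clone. Late mice lie below the early mice in Nfkbia and Txnip and in 2 of 3 Errfi1 clones, the 3H mice lie within or above the early range in Nfkbia and Klf9, and Lcn2 runs the other way.

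Immediate early and clock genes are the other lists tied to handling and hour of the day. Of 8 immediate early clones, 1 was lower at p under 0.05, against 3.9% of all clones, and the median was -0.08. This was Gadd45g, a stress-induced growth arrest gene, at -0.42 (SE 0.16), and Btg1, an antiproliferative gene, differed by -0.34 (SE 0.21). Fos, Junb, Atf3 and Nr4a1 had no clone bright enough. Of 20 clock clones only 4 could be tested, and none had a p under 0.05. Clock, a core activator of the clock, differed by 0.11 (SE 0.16). Arntl and Cry1 were too dim, so that the phase of the clock could not be read from these microarrays.

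The lists of lung cell types held between 3 and 26 tested clones. In whole lung fewer cells of a type cannot be told apart from less RNA per cell. In the endothelial list, 11 clones had a median of 0.37. At p under 0.05, 2 were higher and 1 lower, against 2.91% and 3.9% of all clones. Icam2, an adhesion molecule of resting endothelium, read 10.25, 10.33 and 9.98 early and 10.93, 10.46 and 10.77 late, a difference of 0.53 (SE 0.18). The other higher clone was of Eng, or endoglin, a TGF-beta coreceptor, at 0.64 (SE 0.25), chosen after its values were seen. Emcn, the capillary and venous sialomucin endomucin, went the other way, reading 9.80, 9.41 and 9.60 early and 9.23, 8.85 and 8.91 late, a difference of -0.61 (SE 0.17). The defining markers Pecam1 and Cdh5 differed by -0.04 (SE 0.24) and 0.03 (SE 0.24).

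The fibroblast and extracellular matrix list had 26 clones of 20 genes with a median of -0.17. At p under 0.05, 4 were lower and 1 higher, against 3.9% and 2.91% of all clones. Col1a2, a chain of type I collagen, read 12.31, 12.62 and 12.51 early and 12.01, 12.09 and 11.91 late, a difference of -0.48 (SE 0.15). The others with a p under 0.05, named after their values were seen, were Col3a1 (-0.86, SE 0.32), Igfbp5 (-0.61, SE 0.21) and 1 of 2 clones of the proteoglycan Dcn (-0.52, SE 0.22). In Col3a1 and Dcn the groups overlapped. Npnt, a basement membrane ligand of integrin, was the 1 clone higher, by 0.45 (SE 0.15).

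Of 10 surfactant and type II clones none had a p under 0.05, with a median of 0.27. Sftpd differed by 0.25 (SE 0.14), and Etv5, a transcription factor of type II cells, by 0.41 (SE 0.20). In the airway and type I list of 7 clones the median was -0.03. Aldh1a1, a retinal dehydrogenase, differed by 0.02 in its brighter clone and by -0.08 in the other, and Tacstd1, the epithelial adhesion molecule EpCAM, by 0.13 (SE 0.19). In the muscle list of 10 clones the median was 0.00, and Des, or desmin, differed by 0.41 (SE 0.17). The brighter clone of Tpm1, a tropomyosin, differed by -0.29 (SE 0.16) and the dimmer one by 0.12.

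Blood cells were covered thinly. Of 5 neutrophil clones Lcn2 alone had a p under 0.05, against 6.81% of all clones. S100a9, with S100a8 the main cytosolic protein of neutrophils, read 10.94, 10.96 and 11.73 early, 12.99 and 10.51 at 18H and 11.58 at 24H. S100a8 read 10.26, 10.80 and 11.17 early, 12.21 and 9.84 at 18H and 10.95 at 24H. The first 18H mouse was the highest of the 6 in both, as it was in the interferon genes, and the 3H mice reached 12.56 and 12.16. The mean level of the 5 neutrophil clones ran from 10.14 to 10.39 in the early mice and was 11.02, 9.87 and 10.56 in the late mice. The part of neutrophil number in the interferon genes was not tested. The B cell list had 3 clones, all negative, with a median of -0.52. Igh-6, the immunoglobulin mu heavy chain, differed by -0.76 (SE 0.29) in 1 clone and by -0.52 (SE 0.30) in the brighter one, in which the 1H30 mouse was highest at 12.27. Cd79b, part of the B cell receptor, differed by -0.16 (SE 0.17).

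Of 4 T and NK cell clones none had a p under 0.05. Cd6 differed by 0.26 (SE 0.18) and Thy1 by -0.15 (SE 0.16), and Cd3e, Cd4 and Cd8a were too dim. In the macrophage list of 7 clones the median was -0.07, with Ctsd higher and Ctsb, or cathepsin B, at -0.30 (SE 0.16). In the red cell list of 15 clones the median was 0.01. Of these clones 9 were of Hba-a1 and 3 of Hbb-b1, the hemoglobin chains. The highest means in the list were 14.36 early and 14.35 late, near the highest intensity recorded. Clones at that level could not show a difference, so that this median says little of hemoglobin RNA. Tfrc, the transferrin receptor, read 9.06, 8.97 and 9.28 early and 8.77, 8.79 and 8.28 late, a difference of -0.49 (SE 0.18), and Bpgm, the mutase that makes bisphosphoglycerate in red cells, differed by 0.27 (SE 0.20). Of 7 cytokine clones Ccl6, a macrophage chemokine, differed by -0.46 (SE 0.18) and Ccl7, a monocyte chemokine, by 0.25 (SE 0.16), and Il1b, Cxcl1, Cxcl10 and Ccl2 were too dim.

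Transcripts of liver stood out in 1 mouse. Alb1, the serum albumin gene, read 10.68, 8.03 and 10.48 in the early mice and 8.17, 7.83 and 13.02 in the late mice, with 13.02 in the 24H mouse, 2.34 above the highest early mouse. Gnmt, a liver methyltransferase, read 8.97, 8.15 and 9.02 early and 8.33, 8.56 and 10.92 late. The 24H mouse was the highest in both, and the 1H mouse at 8.03 in Alb1 was the lowest of the early mice in both. These genes were chosen after their values were seen. One clone of Ndufb7, a subunit of complex I, had the same order, with 13.33 in the 24H mouse, while its second clone read 9.19 there. The liver list had 4 tested clones and a median of 0.09. C3, a complement protein, differed by 0.39 (SE 0.18), and Apob by -0.71 (SE 0.33).

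Lists of general cell functions had medians near that of all clones. The 94 clones of cytosolic ribosomal proteins had a median of 0.06. At p under 0.05, 3 were higher and 1 lower, against 2.91% and 3.9% of all clones. Rpsa, the laminin receptor and ribosomal protein SA, differed by 0.38 (SE 0.15) in its brightest clone and by 0.18, 0.10 and 0.093 in the others. The 58 clones of the respiratory chain had a median of -0.01, the 30 proteasome clones of -0.02 and the 11 clones of mitochondrial ribosomal proteins of -0.07. Atp5d, an ATP synthase subunit, differed by 0.55 (SE 0.20), Mrps10 by -0.22 (SE 0.15) and Mrpl20 by -0.22 (SE 0.15). The brightest Atp5j clone differed by -0.23 (SE 0.15) and its other clones by -0.39 and -0.05. In the proteasome, Psma3 differed by -0.42 (SE 0.19) in its brighter clone and -0.59 (SE 0.17) in the other, and Psmb1 by -0.49 (SE 0.16).

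Among 45 chaperone clones the median was 0.09. At p under 0.05, 3 were higher and 1 lower, against 2.91% and 3.9% of all clones. Hsp90ab1, the constitutive cytosolic HSP90, had 5 clones, all positive, from 0.34 in the brightest to 0.79. The clone with the lowest p read 11.82, 11.96 and 11.80 early and 13.14, 12.66 and 12.08 late. Again the first 18H mouse was the highest, and here the 24H mouse was the lowest of the late mice. Cct2, a chaperonin subunit, differed by -0.55 (SE 0.20) in its first clone and by 0.06 in the second.

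In the antioxidant list of 25 clones the median was 0.09, with Gpx3 the 1 clone with a p under 0.05, against 6.81% of all clones. Keap1, the sensor of oxidative stress, differed by 0.26 (SE 0.17). In the cell cycle list of 19 clones the median was 0.16. At p under 0.05, 1 was higher and 1 lower, against 2.91% and 3.9% of all clones. These were Rrm1, the large subunit of ribonucleotide reductase, at 0.41 (SE 0.17), and the leading H2afz clone, at -0.89 (SE 0.20). With no filter, 24 of 74 clones of the list had positive differences, and the median was -0.14. Then 1 was higher and 11 lower at p under 0.05, against 247 and 400 of 7625 clones. In the hypoxia and glycolysis list of 13 clones the median was 0.06, Pdk1, the kinase that holds back pyruvate dehydrogenase, differed by -0.39 (SE 0.15), and Tpi1, or triosephosphate isomerase, by -0.22 (SE 0.14). In the lipid metabolism list of 16 clones the median was 0.02. G0s2, an inhibitor of lipolysis, differed by -0.36 (SE 0.15) in its brighter clone and by -0.07 in the dimmer one. Hdlbp, the RNA-binding protein vigilin, differed by 0.13 (SE 0.18) in its brighter clone and by 0.36 in the dimmer one. The adipocyte list had 2 tested clones, Cebpa, a transcription factor of adipocytes, at 0.44 (SE 0.27) and Slc2a4, the insulin-responsive glucose transporter, at 0.12 (SE 0.27), and Adipoq and Cfd were too dim. Of the genes in these lists, Atp5d, Rrm1 and the dimmer clone of Hdlbp had an early mean under the filter's level, and Tfrc and Mrpl20 a late mean under it, so that each passed through 1 group alone.

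**Figure D4:**
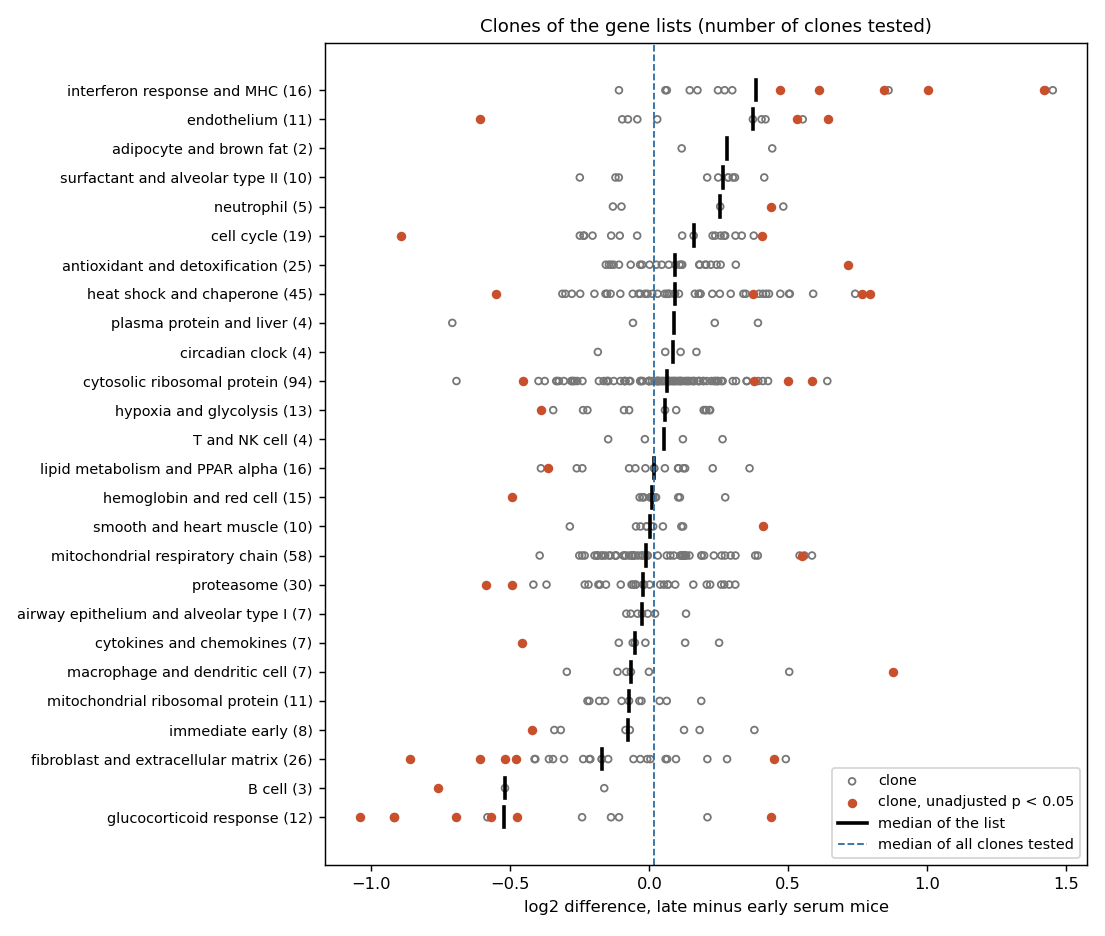
Late minus early log2 difference of every tested clone in 26 gene lists, ordered by list median, with the number of clones in brackets. Black bars are list medians, filled points have an unadjusted p under 0.05, and the dashed line is the median of all 1925 clones, 0.02. The interferon and MHC list lies farthest to the right (median 0.38) and the glucocorticoid and B cell lists farthest to the left (medians -0.52).

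The same times were then compared between treatments, to ask whether late minus early in OA mice differed from late minus early in serum mice. OA and serum mice are different animals, and all 60 microarrays were normalized together for this fit. In OA mice 60 clones (3.12%) were higher and 23 (1.19%) lower late at 5% FDR, 83 in all, with 10 and 6 mice. The difference between the 2 treatments passed 5% FDR in 0 clones (0%), with a lowest adjusted p of 0.336 and 130 clones (6.75%) at an unadjusted p under 0.05. Its median SE was 0.23, so that this design could not resolve differences of the median size seen here. Without the second 18H serum mouse, 6 clones passed, 2 of Gbp2, 2 of Irf1, and those of Ifi47 and Samhd1. Each had a smaller difference in OA mice. The Gbp2, Irf1 and Ifi47 clones had an early serum mean under the filter's level. They were tested only because late serum mice were high, which favoured such a gap. In the Gbp2, Irf1 and Ifi47 clones the mouse left out lay within or below the early range. In the Samhd1 clone it read 9.30, just above the highest early mouse at 9.24. With this mouse no clone passed. The labels give OA mice a lot number, in which late mice are of 1 lot and early mice of others, and give none for serum mice, so that lot and time cannot be told apart in OA mice.

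Late minus early was 0.36 in OA mice for the brightest Gbp2 clone and -0.18 and -0.01 for the others. For Wars it was 0.19, in Tgtp 0.06, in Ifi47 -0.06 and in the dimmer Samhd1 clone -0.02. In serum mice these clones had differences of 0.71 to 1.46 when normalized alone. The gap between the treatments, OA minus serum, was -0.68 (SE 0.19) for that Samhd1 clone and -1.45 (SE 0.43) for the second Gbp2 clone, with an adjusted p of 0.43 for both in limma. The brightest Gbp2 clone spread from 6.30 to 9.39 in the early OA mice and from 6.04 to 9.41 in the late ones, so that single OA mice also differed widely.

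Errfi1 had the same sign in both treatments, with -0.83 (SE 0.24) in OA mice in the clone with the lowest p, at an adjusted p of 0.0513. For the brighter Nfkbia clone the OA difference was -0.58 (SE 0.16) with an adjusted p of 0.0442 in limma, so that this clone was lower in late OA mice. The other Nfkbia clone differed by -0.45 (SE 0.20) in OA mice and did not pass. Txnip did not pass, with -0.07 in OA mice. Eef2 rose in OA mice by 0.49 (SE 0.13) in its first clone, with an adjusted p of 0.0441 in limma. Its other clones did not pass in OA mice, with 0.45 in the brightest and 0.47 and -0.03 in the rest. Gnb2 and Lztr1 rose by 0.40 and 0.36 in OA mice, with adjusted p of 0.0499 and 0.0485 in limma. H2-K1 rose by 0.81 (SE 0.14) with an adjusted p of 0.00846. Ftl1, Gpx3, Ctsd and Cd97 differed by 0.50, 0.45, 0.36 and 0.23 in OA mice and did not pass. Of the 20 leading clones, 13 had the same sign in both treatments and 3 passed in OA mice. Of all clones, 4.31% passed in OA mice, and 55.2% had a positive difference there. Among all serum clones at p under 0.05, 64.3% of the higher and 65.3% of the lower had the same sign in OA mice. The share of the leading clones with the same sign was thus near that of these clones. Zubr1, at -0.59 in serum mice, was at 1.17 in OA mice and did not pass, with 1 early OA mouse at 7.88 and the next at 10.07.

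**Figure D5:**
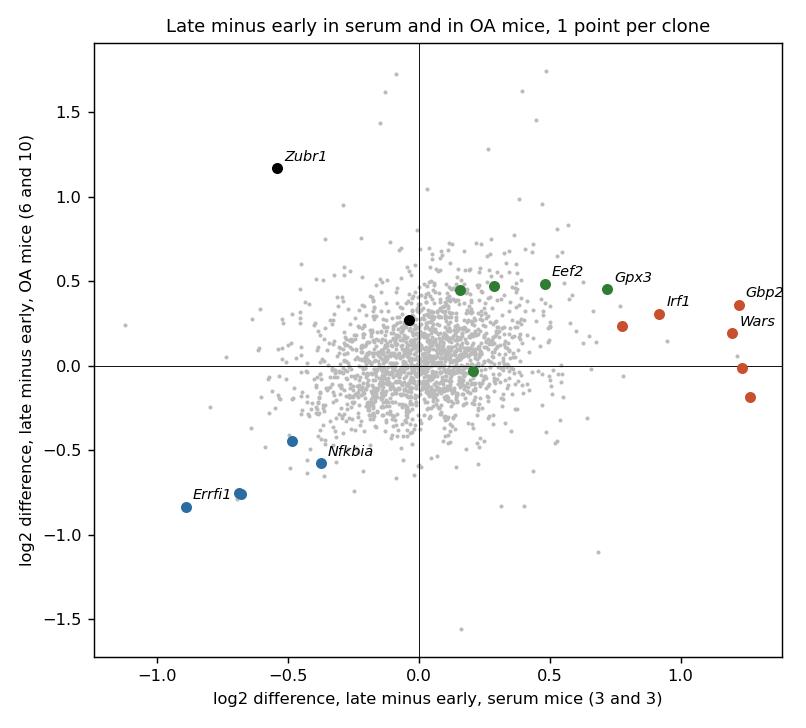
Late minus early log2 difference in serum mice (x axis, 3 and 3 mice) and in OA mice (y axis, 6 late and 10 early), 1 grey point per tested clone, from 1 normalization of 60 microarrays. Colored points are all tested clones of the named genes. Errfi1 and Nfkbia lie low in both, Gbp2, Irf1 and Wars lie far right and between -0.18 and 0.36 on the y axis, and 1 Zubr1 clone is high in OA mice alone.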

How the data were processed

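Lung RNA of each mouse was hybridized to MUSV29K nylon microarrays. The authors deposited the spot intensity of each array from the image analysis in 4 versions (image or fitted signal, constant or calculated diameter); the methods describe a correction for local background and for bright neighbouring spots, but whether these columns hold values before or after it is not given in the sources used here. The authors also deposited a table of log2 values, quantile-normalized by them, which served as an alternative. Here the image signal at constant diameter was floored at 1, log2-transformed and quantile-normalized over the 9 serum arrays, and the 2 arrays of the 1H30 mouse were averaged. Clones with a mean above the 95th percentile of the empty spots were tested with limma 3.58.1 (R 4.3.3, lmFit and eBayes, two-sided) and Benjamini-Hochberg adjustment at 5% FDR, after a check on simulated data. OA and serum mice were compared as an interaction over 60 arrays. An OA array with conflicting labels and another not tied to a mouse were left out.

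Members and gene lists were chosen with earlier results of these data known. Named clones were those called, filled to 10 per direction by the lowest unadjusted p among clones with groups that do not overlap, and the 2 genes with the lowest p of each list, named by the brightest clone with the other clones beside it. Exceptions are marked in the text, and some genes that the rule names are not reported here. Alternatives were other signal columns, normalizations, filters, sample sets and variance models, and leaving out each mouse. Promoters came from RefSeq (GRCm38.p6).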

Additional observations from a re-analysis of the deposited data

Results flagged for a closer look

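In the OA mice of the compared times, 9 of 66 groups tested, over 33 clones named in the text, held 1 mouse whose gap to its nearest neighbour was large for the range of its group, by Dixon's test. Chance gives such a mouse in about 1 in 20 groups. All 9 were among the 10 early OA mice. The highest mouse read 9.61 in Traf1, 11.58 in the clone of Igh-6 with the lower level, 10.46 in Tgtp, 12.35 in the leading H2afz clone and 14.01 in S100a9. The lowest read 8.81 in Wars, 9.83 in the leading Ftl1 clone, 8.79 in Emcn and 7.88 in the leading Zubr1 clone. The serum groups had 3 mice each and were not tested in this way.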

How the results depend on the processing

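No clone passed 5% FDR in late against early serum mice under any alternative tried, and the lowest adjusted p among the named clones was 0.054, for Tgtp without the second 18H mouse. The counts at an unadjusted p under 0.05, 56 higher and 75 lower, moved with the signal column, the filter and the spread. With the fitted signal at constant diameter 98 were higher. With the fitted signal at calculated diameter 93 were higher and 44 lower, and with the image signal at calculated diameter 27 and 18. Without a filter they were 247 and 400 of 7625 clones, with the 99th percentile of empty spots 26 and 18, and with the 3H mice sharing the spread 37 and 42. With 18H against 1H alone 34 were lower. Leaving out 1 mouse at a time gave 34 to 97 higher and 44 to 115 lower. The difference between treatments had 1 call without a filter, Nckipsd at -2.01, and 0 to 6 calls without 1 serum mouse. The cause of these moves was not tested.

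Of 1586 values of the 88 named clones under the 19 alternatives with a fit, 58 turned sign. The fitted signal at calculated diameter gave 0.55 for the brighter H2afz clone, -0.12 for Etv5, 0.20 for Gadd45g, 0.14 for the brighter Zubr1 clone, -0.28 for Rpsa, -0.12 and 0.13 for the brighter and dimmer Aldh1a1 clones, 0.15 for the brightest Ppia clone, 0.55 for G0s2, 0.054 for the leading Naca clone, 0.25 for Psmb1, 0.094 for Btg1, -0.028 for the brightest Cd74 clone, 0.22 for Ctsb and -0.098 for Rad21. The fitted signal at constant diameter gave 0.13 for H2afz, 0.42 for Thy1, 0.12 for Zubr1, 0.046 for Ppia, and -0.038 and 0.0030 for Aldh1a1. The image signal at calculated diameter gave -3.03 for the brightest Ftl1 clone, 0.26 for H2afz, 0.0047 for Zubr1, 0.14 for Atp5j, -0.011 for Aldh1a1, 0.050 for Ppia, 0.19 for Psmb1 and 0.074 for Ctsb. Median centring gave 0.039 for Zubr1, -0.082 for Aldh1a1 and -0.067 for Cd74. An offset of 50 gave 0.0067 for Alb1, the 1H30 microarrays counted as 2 mice gave 0.022 for Ppia, and 18H against 1H gave 0.055 for H2afz and 0.036 for Cd79b.

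Leaving out 1 mouse turned the sign of 12 clones. Their ranges were -1.73 to 0.86 for Alb1, -0.17 to 0.14 and -0.22 to 0.032 for the brighter and dimmer Aldh1a1 clones, -0.11 to 0.18 for Cd74, -0.0070 to 0.23 for Hdlbp, -0.18 to 0.028 for the brightest Naca clone, -0.15 to 0.054 for Ppia, -0.35 to 0.84 for S100a8, -0.16 to 1.07 for S100a9, -0.21 to 0.37 for Slc2a4, -0.0061 to 0.24 for Tacstd1 and -0.13 to 0.094 for Zubr1. Normalization without the 3H microarrays, chosen after the data were seen, turned none. In the table of log2 values the authors deposited, which was not tested, 68.8% of tested clones had the same sign, and 15 of the 88 named clones had the other one, with 0.16 for the leading Naca clone, -0.14 for Rad21, 0.085 for Psmb1, 0.57 for G0s2, -0.34 for Rpsa and 0.040 for Gadd45g among them. No paired analysis was possible because the labels give 1 serum sample per time, the mice of different times are different animals and their numbers only name them. With 3 and 3 mice the number of microarrays limits the precision, and clones too dim for the filter were left out of the main test.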
